A study of Homo sapiens with 48 samples.

Results

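Aminoacyl-tRNA synthetases were followed at the level of mRNA in human fibroblasts in which oncogenic RAS was switched on and 2 splicing factors were depleted. The 36 members were taken by gene name, 20 encoding cytosolic enzymes and 16 encoding mitochondrial enzymes, which carry a 2 at the end of their symbols. Of the 36, 34 were found among the 19847 entries of the count table, and all 34 passed the filter of 10000 counts over the series, as 9991 genes did. MARS2 and VARS2 were not analysed here, which left 20 cytosolic and 14 mitochondrial genes.

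The RNA came from IMR90 ER:RAS cells, a line of lung fibroblasts with an HRAS G12V protein joined to an oestrogen receptor domain, and every group carried the fusion. Cells were given the solvent DMSO or 4-hydroxytamoxifen (4OHT), which activates the fusion and leads to senescence, for 6 days. They were then transfected with siRNAs that have no target (siNT), that target SF3B1 (siSF3B1) or that target RBM39 (siRBM39) and kept for 2 more days in 0.5% FBS. The 48 libraries form 6 groups of 8, namely DMSO siNT, 4OHT siNT, DMSO siSF3B1, 4OHT siSF3B1, DMSO siRBM39 and 4OHT siRBM39, each made of 2 siRNAs with 4 replicates. A single line carries the fusion, no group without it is part of these libraries, and the labels do not say that replicates were separate cultures, so p-values measure the spread between these libraries. Both siRNAs of a target were pooled in a group, and for several synthetases they gave different levels.

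Each aminoacyl-tRNA synthetase attaches one amino acid to its matching tRNAs, the step at which the genetic code is read into amino acids. Cytosolic enzymes serve the ribosomes of the cytosol, while a separate set, encoded in the nucleus and imported, serves protein synthesis inside mitochondria. The genes GARS and KARS encode glycyl- and lysyl-tRNA synthetases for both compartments, and EPRS fuses the glutamyl and prolyl enzymes in one chain. Cytosolic enzymes for a number of amino acids are held with scaffold proteins in a multi-synthetase complex. Many cytosolic synthetase genes are also targets of ATF4, the transcription factor of the amino acid response, and WARS is inducible by interferon gamma. SF3B1 is the subunit of the U2 snRNP that binds at the branch point of introns, and RBM39 is an RNA-binding protein that acts with U2AF in the choice of 3' splice sites.

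The libraries held 31467221 to 52734636 counts. Mean SF3B1 levels were 359 CPM in DMSO siNT and 32.8 CPM in DMSO siSF3B1, and 328 and 27.3 CPM in the 4OHT groups. For RBM39 they were 170.3 and 27.4 CPM in DMSO and 120.2 and 16.3 CPM in 4OHT after siRBM39. Of 6 senescence genes tested, 5 rose with 4OHT, among them IL1A from 0.281 to 51.7 CPM, and LMNB1, the gene known to be lost in senescence, fell. Summed over 8 fibroblast markers, the level ran from 52683 to 59041 CPM in DMSO siNT but only from 14416 to 15305 CPM in 4OHT siNT, and 7 of the 8 fell, whereas the epithelial, endothelial and leukocyte markers summed to at most 3.47, 0.676 and 0.184 CPM in any library. The part of the fibroblast marker change in the synthetase changes was not tested, and in bulk RNA fewer cells of a type and less RNA per cell cannot be told apart. One library, replicate 4 of siRBM39-08 in 4OHT, lay far from the other libraries of its siRNA and treatment. Its root mean square distance from their mean was 0.77 on the log2 scale, against at most 0.34 for any other library. In that library 17 of the 34 synthetase mRNAs were above and 11 below all of the other 7 libraries of 4OHT siRBM39. For siRBM39 in 4OHT the counts, the medians and the changes of the genes described in full are therefore also given without it.

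Per transcript length, cytosolic synthetase mRNAs were more abundant than mitochondrial ones. The median over genes of the mean cRPKM, an RPKM corrected for mappability, was 60.8 for the 20 cytosolic and 7.63 for the 14 mitochondrial genes in DMSO siNT, and 62.2 and 8.23 in 4OHT siNT. WARS, which charges tryptophan, led with 208 ± 7.15 cRPKM (SD, n = 8). GARS followed at 173 ± 13.1 and SARS, the seryl enzyme, at 157 ± 5.41 cRPKM. At the low end of the cytosolic genes was FARSB, the beta subunit of the phenylalanyl enzyme, at 11.005 ± 1.17 cRPKM, well under its partner subunit FARSA at 28.7 ± 0.63 cRPKM. The 2 subunits form one enzyme, yet their mRNAs did not overlap in level in any library of DMSO siNT. The highest mitochondrial gene was IARS2, for isoleucine, at 38.2 ± 0.92 cRPKM, above 6 cytosolic genes (FARSA, LARS, DARS, VARS, HARS and FARSB). PARS2, for proline, was lowest at 2.67 ± 0.12 cRPKM. Of the 33 pairs of neighbours in this order, 25 overlapped in their range over libraries, so most adjacent positions do not differ beyond the spread.

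**Figure D1:**
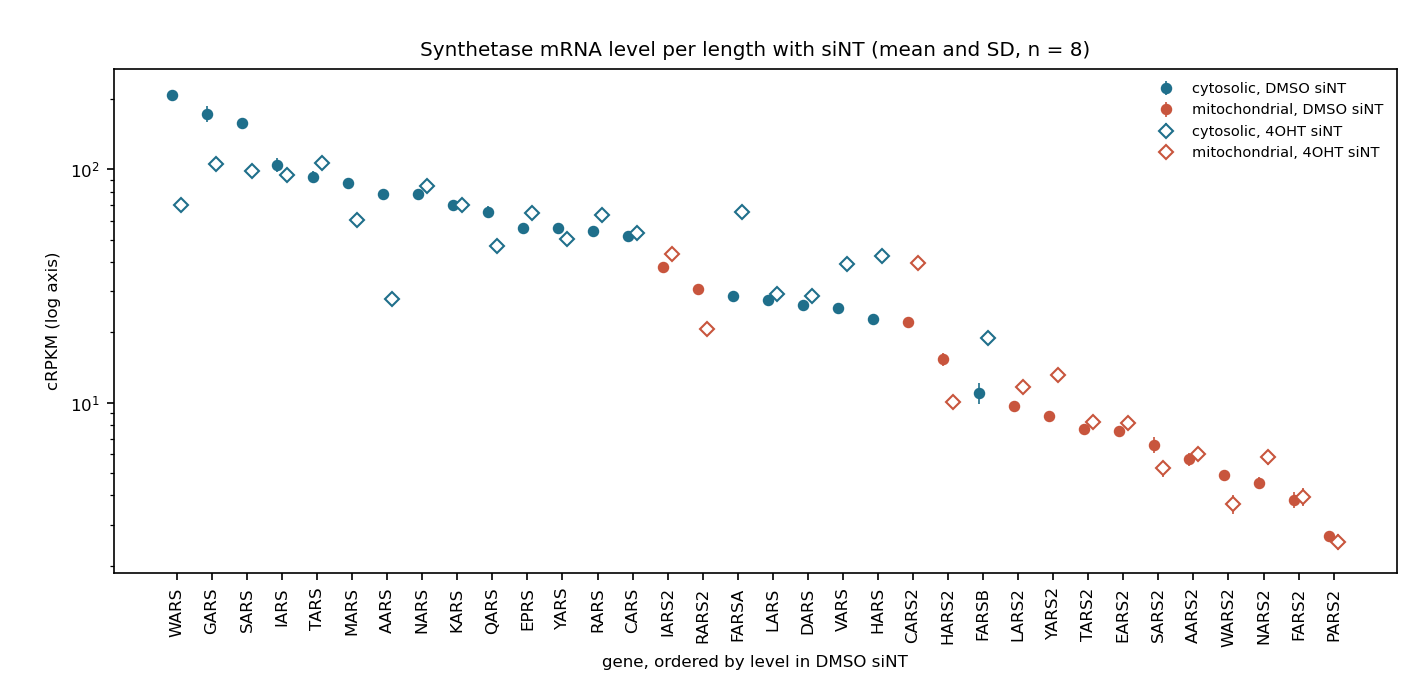
Mean level of each synthetase mRNA in cRPKM on a log axis, with SD over 8 libraries, for DMSO siNT (filled circles) and 4OHT siNT (open diamonds), with genes ordered by their level in DMSO siNT. Cytosolic genes run from 208 cRPKM for WARS to 11.005 for FARSB, and mitochondrial genes from 38.2 for IARS2 to 2.67 for PARS2.

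The first comparison asked how the synthetase mRNAs stood after RAS activation, with non-targeting siRNA in both groups. Among cytosolic genes, 7 of 20 were higher and 7 lower in 4OHT than in DMSO, against 39% and 39.1% of all genes tested. Among mitochondrial genes, 7 of 14 were higher and 4 lower, and 7 in all were called with siNT2 alone. Over all 9991 genes, 7798 were called with both siNT siRNAs and 6724 with siNT2 alone. The median log2 change was 0.07 for cytosolic and 0.09 for mitochondrial genes, beside -0.0019 over all genes. Genes counted as called had a Benjamini-Hochberg adjusted p under 0.05 over all 9991 genes with edgeR's quasi-likelihood test, the rule used for every gene below. Single genes of both sets moved in either direction by more than the medians show.

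WARS ranged from 559 to 632 CPM (median 583) in DMSO siNT and from 193 to 211 CPM (median 198) in 4OHT siNT. The 2 ranges were far apart, and per length WARS stood at 208 cRPKM in DMSO siNT and at 70.2 cRPKM in 4OHT siNT. The log2 change was -1.56 ± 0.09 (SE), with an adjusted p of 1.63e-20. AARS, the alanyl enzyme, ranged from 246 to 266 CPM (median 255) and from 88.7 to 94.0 CPM (median 91.2), a change of -1.49 ± 0.08 with an adjusted p of 1.95e-22. Its ranges did not overlap either. GARS fell by 0.71 on the log2 scale (SE 0.07), from 418 to 522 CPM in DMSO siNT to 261 to 289 CPM in 4OHT siNT, with an adjusted p of 4.02e-12. The other cytosolic genes that fell were SARS (-0.67), MARS (-0.53), QARS (-0.48) and YARS (-0.15), which serve serine, methionine, glutamine and tyrosine.

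FARSA moved the other way, from a range of 49.1 to 52.9 CPM (median 51.3) to one of 110.0 to 128 CPM (median 117). Its log2 change of 1.20 ± 0.09, with an adjusted p of 8.05e-17, was the largest rise among the members. The partner subunit FARSB also rose, by 0.79 on the log2 scale, and so did HARS (0.90), VARS (0.65), RARS (0.24), EPRS (0.22) and TARS (0.21), the enzymes for histidine, valine, arginine, glutamate with proline, and threonine. For EPRS the groups were apart, at 254 to 301 and 308 to 328 CPM, but its adjusted p of 0.0325 was lost with either siNT siRNA alone and without replicate 2 or 3. KARS did not pass the test, with 140.2 to 159 CPM in DMSO siNT and 143 to 153 CPM in 4OHT siNT.

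Among mitochondrial genes the largest rise was in CARS2, the cysteinyl enzyme, from 36.7 to 42.6 CPM (median 40.6) to 69.7 to 75.8 CPM (median 72.0). That is a log2 change of 0.86 ± 0.09 with an adjusted p of 1.68e-11, while its cytosolic counterpart CARS stayed at 0.05 and did not pass. YARS2, for tyrosine, rose from 16.6 to 18.5 CPM to 24.4 to 28.7 CPM, by 0.59 ± 0.04 with an adjusted p of 2.74e-18. Smaller rises were found for NARS2 (0.37), LARS2 (0.28), IARS2 (0.19), TARS2 (0.12) and EARS2 (0.11). The genes that fell were HARS2 (-0.61), RARS2 (-0.56), WARS2 (-0.41) and SARS2 (-0.33). Summed over genes, cytosolic synthetase mRNA was 1476 ± 47.6 cRPKM in DMSO siNT and 1223 ± 7.66 cRPKM in 4OHT siNT, and mitochondrial synthetase mRNA 168 ± 3.09 and 182 ± 3.22 cRPKM (SD, n = 8). The groups did not overlap in either sum, but single genes carry much of the difference, with WARS at 208 and 70.2 cRPKM and CARS2 at 22.1 and 39.8 cRPKM in the 2 groups.

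**Figure D2:**
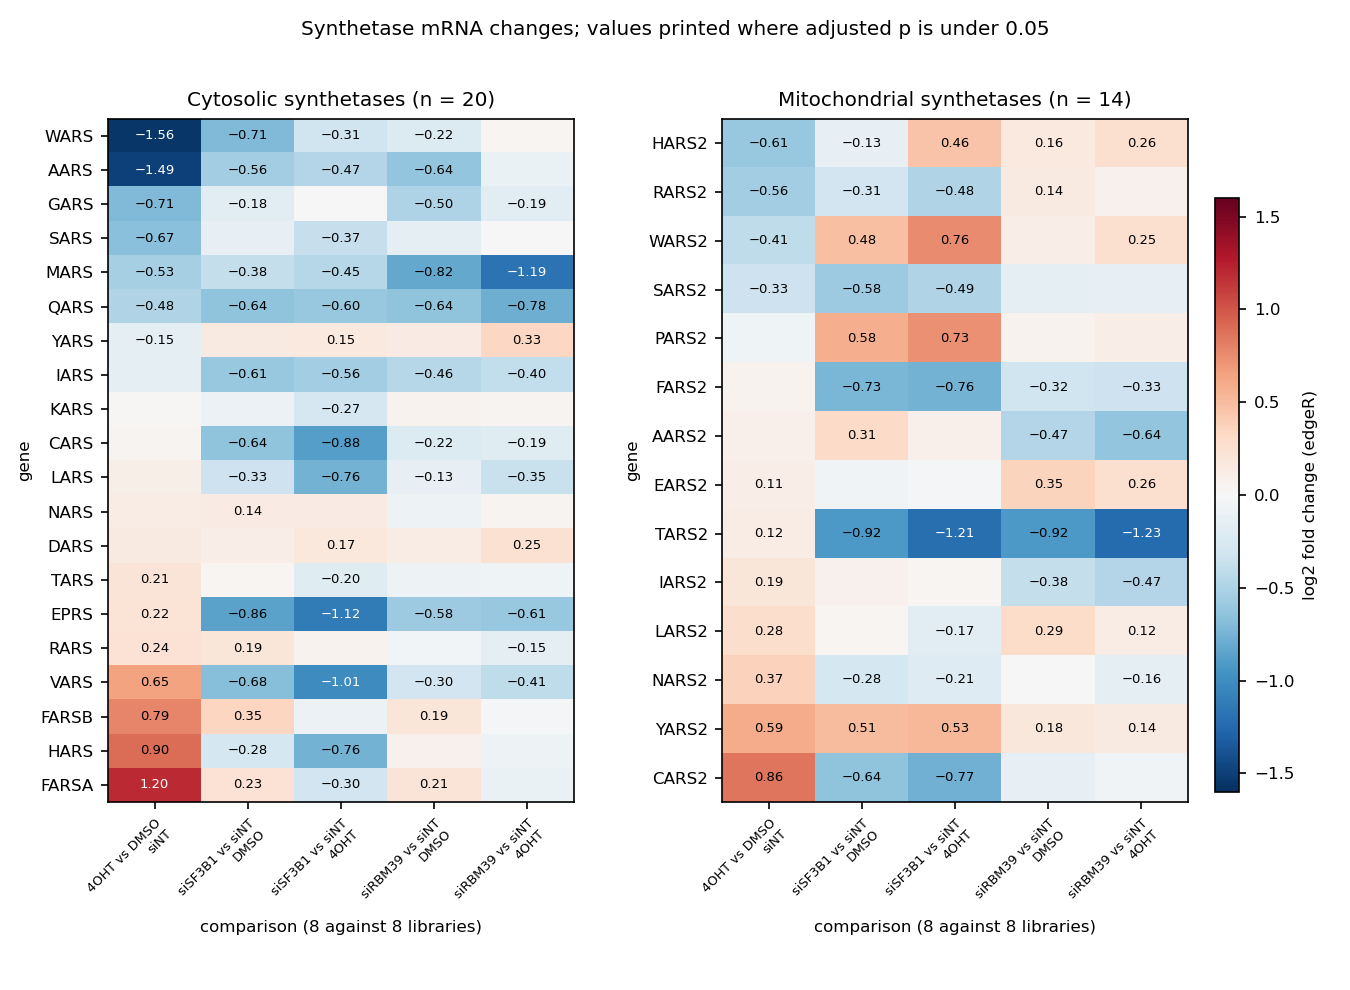
Log2 fold change of each cytosolic (left) and mitochondrial (right) synthetase mRNA in the 5 comparisons of 8 against 8 libraries, with the value printed where the adjusted p is under 0.05 (edgeR). The first column of each panel orders the genes, from WARS at -1.56 to FARSA at 1.20 and from HARS2 at -0.61 to CARS2 at 0.86.

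HARS and HARS2, the cytosolic and mitochondrial histidyl enzymes, lie head to head on chromosome 5. In RefSeq's annotation of GRCh38.p14 their start sites, at 140691370 on the minus strand for HARS and 140691455 on the plus strand for HARS2, are 85 bases apart. The bases between them are shown on the HARS2 strand because both genes are read outwards from this stretch and moved in opposite directions.
HARS to HARS2, chr5:140691371-140691454 (+): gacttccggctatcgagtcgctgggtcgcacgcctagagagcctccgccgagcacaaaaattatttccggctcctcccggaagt
HARS ranged from 71.1 to 82.1 CPM (median 73.1) in DMSO siNT and from 136 to 143 CPM (median 138) in 4OHT siNT. HARS2 ranged from 32.2 to 40.1 CPM (median 37.4) and from 22.3 to 26.02 CPM (median 23.96). Neither pair of ranges overlapped, and the log2 changes were 0.90 ± 0.10 (adjusted p 4.74e-11) and -0.61 ± 0.05 (adjusted p 1.64e-14). After siSF3B1 in 4OHT both went the other way, HARS to 74.8 to 89.2 CPM (-0.76 ± 0.10, adjusted p 4.38e-09) and HARS2 to 31.005 to 34.6 CPM (0.46 ± 0.05, adjusted p 1.53e-10). In DMSO both fell after siSF3B1, by 0.28 and 0.13 on the log2 scale, but both calls were lost with siSF3B1-16 alone and without replicate 2 or 3. The gene models overlap at their 5' ends in GRCh37 (HARS, chr5:140052620-140071122 and HARS2, chr5:140071015-140078890), and whether counting used strand is not given in the sources used here, so reads from that overlap cannot be told apart.

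Of the 13 pairs of a cytosolic and a mitochondrial gene for one amino acid, with FARSA and FARSB each paired with FARS2, both genes were called in 6 with 4OHT. In 3 of these they went opposite ways (HARS with HARS2, RARS with RARS2, YARS with YARS2) and in 3 the same way (SARS, TARS and WARS with their counterparts). After siSF3B1 the pairs split 6 opposite to 2 the same in DMSO and 2 to 6 in 4OHT. After siRBM39 they split 3 to 2 in DMSO and 1 to 2 in 4OHT. Without the library that stood apart, HARS with HARS2 also went opposite ways in 4OHT. AARS, CARS and FARSA then also went the same way as their counterparts. Pairs of both kinds were thus present in every comparison.

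The genes of the amino acid response, which ATF4 controls and which include enzymes of serine and asparagine synthesis and amino acid transporters, fell with 4OHT. Of 19 listed genes tested, 17 were lower and 1 higher, against 39.1% and 39% of all genes. The median log2 change was -1.04 beside -0.0019 over all genes. The largest were PHGDH (195 to 25.1 CPM, -2.96 ± 0.16) and PSAT1 (241 to 42.8 CPM, -2.49 ± 0.17), which act in serine synthesis. The adjusted p-values were 3.71e-22 and 1.43e-18 by edgeR. No synthetase is in that list.

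One form of the C/EBP-ATF response element of such genes reads TGATGCAA. These letters were searched on both strands in the RefSeq windows of 300 bases, 250 before to 50 after the start, of the 29 members that had one (38 windows). They stood in 6 of 16 cytosolic genes (28.6% of 21 windows) and in 0 of 13 mitochondrial genes, beside 0.866% of 35116 windows over all genes and 2 of 16 amino acid response genes. The 6 genes are AARS, CARS, IARS, MARS, NARS and TARS. The sites of 3 of them are shown in GRCh38.p14 on the strand of the gene with the match in capitals, here its reverse complement, since they are the shared letters of genes described here.
AARS, chr16:70289686-70289693 (-): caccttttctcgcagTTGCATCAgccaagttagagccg
CARS, chr11:3057418-3057425 (-): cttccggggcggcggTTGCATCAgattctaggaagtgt
MARS, chr12:57488064-57488071 (+): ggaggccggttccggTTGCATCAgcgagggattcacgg
The coordinates are those of the capitals, which begin 187 bases before the start for AARS, 2 bases before it for CARS and 4 bases before it for MARS. With 4OHT the 6 genes with the letters held 1 that rose (TARS) and 2 that fell (AARS and MARS), with a median log2 change of -0.05, and the 10 cytosolic genes with a window but no match held 5 that rose and 4 that fell, with a median of 0.12. Over all genes 39% rose and 39.1% fell with 4OHT. WARS, which fell most, is among those without a match. The looser form TGATGNAA, which contains the first, was found in 7 cytosolic genes and 1 mitochondrial gene (YARS2). It stood in 3.62% of all windows and in 5 of 16 amino acid response genes. A match describes the letters and not a bound site.

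Of 6 interferon gamma genes tested beside WARS, 3 rose and 2 fell with 4OHT, against 39% and 39.1% of all genes. The list thus had no single direction. CXCL10, a chemokine, went from 1.29 to 31.2 CPM and GBP2, a guanylate-binding protein, from 15.9 to 2.03 CPM.

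The next comparisons asked how the synthetases responded to the loss of each splicing factor, in cells without and with active RAS. Comparisons within a treatment share their 8 siNT libraries, so the values of both knockdowns stand side by side and no overlap between them is read as a result. After siSF3B1 in DMSO, 4 of 20 cytosolic genes were higher and 11 lower, against 36.5% and 36.2% of all genes, with a median log2 change of -0.23 beside 0.02 over all genes. In 4OHT 2 were higher and 14 lower, against 39.4% and 37.6%, with a median of -0.34 beside 0.03. Of the mitochondrial genes, 4 of 14 were higher and 7 lower in each treatment, with a median of -0.10 in both. Summed cytosolic mRNA was 1200.0 ± 113 cRPKM in DMSO siSF3B1 and 938 ± 85.3 cRPKM in 4OHT siSF3B1, below the ranges of both matching siNT groups.

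EPRS, the bifunctional enzyme, fell most among the cytosolic genes in both treatments. It ranged from 126 to 175 CPM (median 153) in DMSO siSF3B1 and from 122 to 169 CPM (median 149) in 4OHT siSF3B1, with both groups below every siNT library of their treatment. The log2 changes were -0.86 ± 0.09 (adjusted p 3.8e-11) and -1.12 ± 0.10 (adjusted p 1.19e-14). VARS, the valyl enzyme, ranged from 61.6 to 71.2 CPM in DMSO and from 76.2 to 90.9 CPM in 4OHT, against 99.1 to 111 and 155 to 179 CPM with siNT. Its changes were -0.68 ± 0.07 and -1.01 ± 0.07 (adjusted p 2e-11 and 6.83e-17). The groups did not overlap in either treatment.

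CARS, the cytosolic cysteinyl enzyme, was at 88.0 to 92.1 CPM in DMSO siSF3B1 and at 70.5 to 85.9 CPM in 4OHT siSF3B1, against 133 to 147 and 142 to 147 CPM with siNT. Its log2 change was -0.64 in DMSO and -0.88 ± 0.06 in 4OHT, with an adjusted p of 2.36e-18 in the latter. WARS fell by 0.71 on the log2 scale in DMSO (SE 0.09, adjusted p 2.02e-09) and by 0.31 in 4OHT (SE 0.09, adjusted p 0.00179). In DMSO the siRNAs gave separate ranges, 273 to 312 CPM with siSF3B1-13 and 407 to 438 CPM with siSF3B1-16, both below the 559 to 632 CPM of siNT. KARS differed between the siRNAs in direction in DMSO, with 107 to 119 CPM for siSF3B1-13 (-0.40, called) and 161 to 167 CPM for siSF3B1-16 (0.13, not called), and the pooled change of -0.10 was not called. In 4OHT the pooled KARS change of -0.27 was called. For GARS the change of -0.18 in DMSO had an adjusted p of 0.026 and that in 4OHT was 0.01, and its call in DMSO was lost with lower count filters, with siNT2 alone and without replicate 1, 2 or 3.

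TARS2, the mitochondrial threonyl enzyme, had the largest fall of any member in DMSO and in 4OHT. It ranged from 17.8 to 19.99 CPM (median 18.7) in DMSO siNT and from 8.56 to 11.4 CPM (median 10.01) in DMSO siSF3B1. In 4OHT the ranges were 19.7 to 21.2 CPM (median 20.5) and 7.46 to 9.99 CPM (median 8.85). The knockdown libraries thus held about as much TARS2 mRNA in both treatments, well below all siNT libraries. The log2 changes were -0.92 ± 0.05 (adjusted p 5.27e-20) and -1.21 ± 0.05 (adjusted p 1.28e-24). FARS2, the mitochondrial phenylalanyl enzyme, fell by 0.73 and 0.76 on the log2 scale (adjusted p 1.6e-09 and 5.12e-10), from 5.95 to 7.49 CPM to 3.60 to 4.52 CPM in DMSO and from 6.31 to 8.00 CPM to 3.60 to 4.62 CPM in 4OHT. CARS2 fell by 0.64 and 0.77 (adjusted p 5.65e-08 and 4.33e-10), to 21.97 to 27.3 CPM in DMSO and 36.01 to 47.4 CPM in 4OHT. The mitochondrial genes that rose in both treatments were PARS2 (0.58 and 0.73), WARS2 (0.48 and 0.76) and YARS2 (0.51 and 0.53), the enzymes for proline, tryptophan and tyrosine. AARS2 was called higher in DMSO (0.31) and not in 4OHT (0.08).

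**Figure D3:**
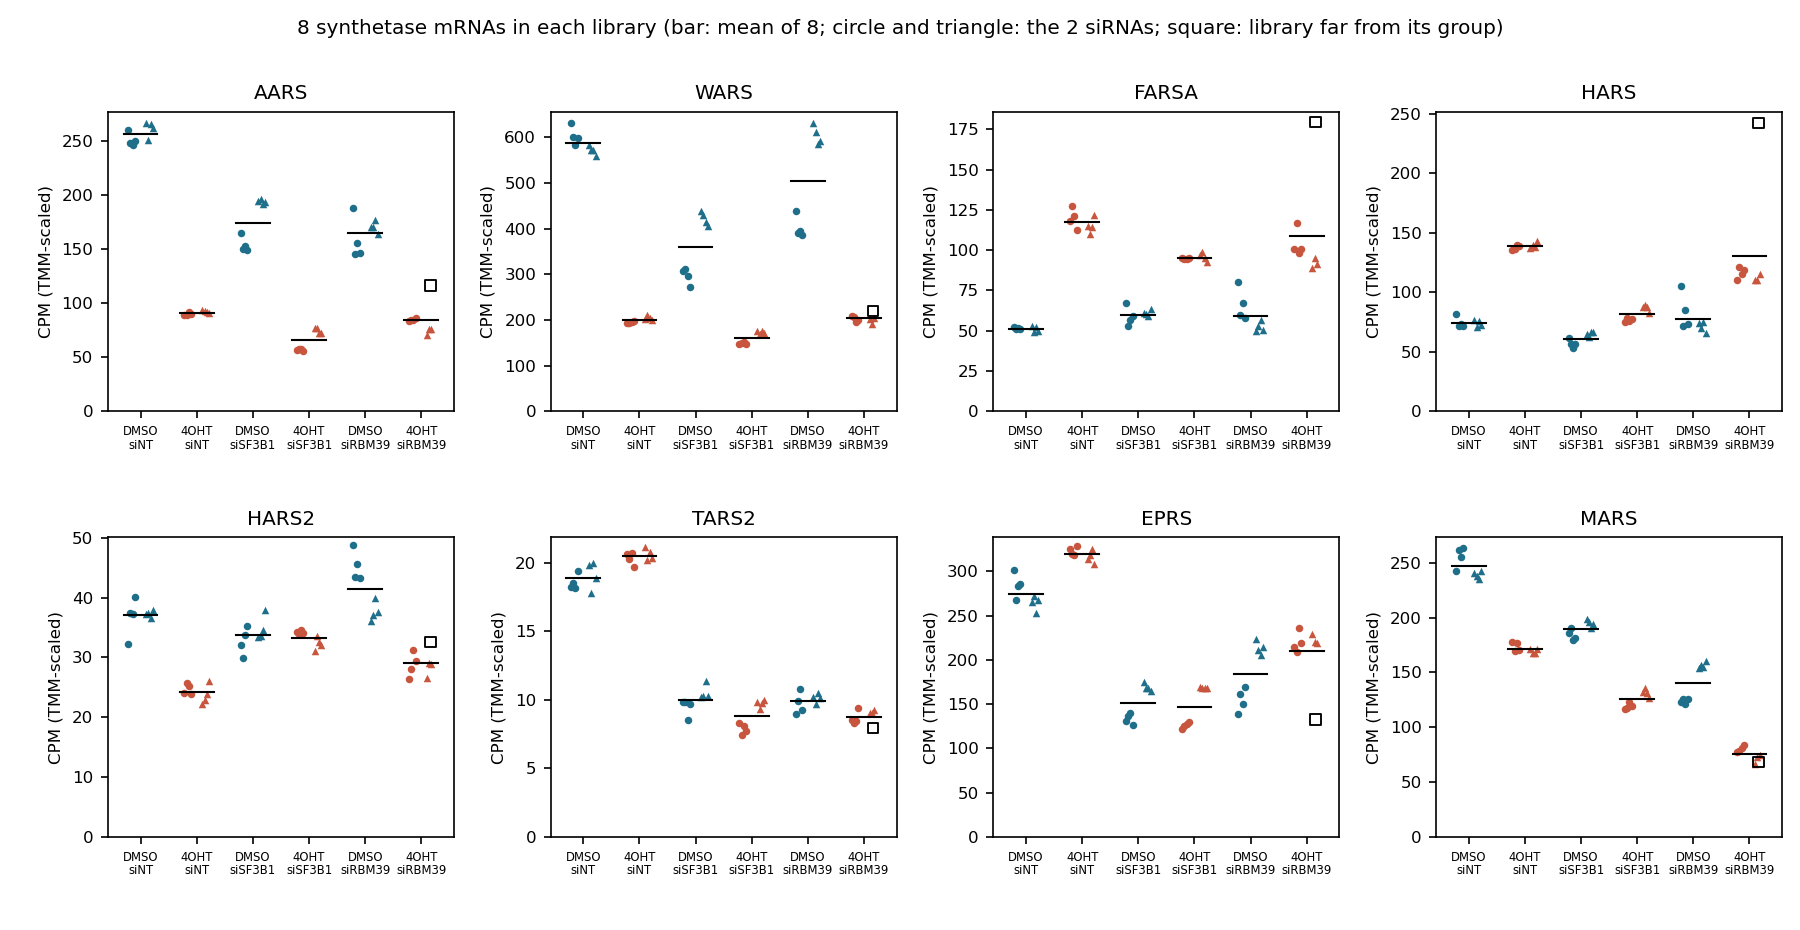
TMM-scaled CPM of 8 synthetase mRNAs in each of the 48 libraries, with a bar at the group mean, circles and triangles for the 2 siRNAs of a group and an open square for replicate 4 of siRBM39-08 in 4OHT. WARS and AARS are low in every 4OHT group, TARS2 is at 7.46 to 11.4 CPM in all 4 knockdown groups, and the square lies at 243 CPM for HARS, above the other 7 libraries at 110.2 to 122 CPM.

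After siRBM39, 2 cytosolic genes were higher and 10 lower in DMSO, against 23.9% and 22.2% of all genes, with a median log2 change of -0.14 beside 0.02. The siRNAs differed here, with 2 higher, 15 lower and a median of -0.31 for siRBM39-06 alone and 4 higher, 7 lower and a median of -0.0036 for siRBM39-08 alone. Over all 9991 genes, calls in either direction numbered 4605 with both siRNAs, 6881 with siRBM39-06 alone and 4657 with siRBM39-08 alone. In 4OHT 2 were higher and 9 lower, against 32.2% and 24.3%, with a median of -0.11 beside 0.05. Without the library that stood apart, 2 were higher and 12 lower in 4OHT, with a median of -0.22. Calls over all 9991 genes in 4OHT then numbered 6013 in either direction, beside 5639 with all libraries. Of the mitochondrial genes, 5 were higher and 4 lower in DMSO and 5 higher and 5 lower in 4OHT (5 and 6 without that library), with medians of 0.03 and 0.0075. These 2 medians changed sign with the libraries used, at -0.0048 in DMSO with siRBM39-08 alone and at -0.02 in 4OHT both without the library that stood apart and with siRBM39-06 alone.

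MARS, the methionyl enzyme that charges the initiator tRNA, fell most among cytosolic genes. It ranged from 236 to 263 CPM (median 242) in DMSO siNT and from 121 to 160.3 CPM (median 139.9) in DMSO siRBM39. In 4OHT it ranged from 167 to 178 CPM (median 171) with siNT and from 66.9 to 83.7 CPM (median 75.9) with siRBM39. None of these ranges overlapped within a treatment, and the log2 changes were -0.82 ± 0.05 (adjusted p 3.37e-18) and -1.19 ± 0.05 (adjusted p 2.75e-24). Without the library that stood apart the latter was -1.17. QARS, the glutaminyl enzyme, went from 157 to 186 CPM to 92.9 to 153 CPM in DMSO and from 120.3 to 131 CPM to 61.0 to 94.2 CPM in 4OHT. Its changes were -0.64 ± 0.08 and -0.78 ± 0.08 (adjusted p 1e-09 and 2.48e-12), and -0.84 in 4OHT without that library. AARS fell in DMSO, by 0.64 on the log2 scale (SE 0.08, adjusted p 1.94e-09), to 145 to 187 CPM. In 4OHT it was not called with all libraries and was called lower without the library that stood apart (-0.19, adjusted p 0.0177). EPRS fell by 0.58 in DMSO and by 0.61 in 4OHT (adjusted p 1.7e-06 and 4.29e-07), and by 0.53 in 4OHT without the library that stood apart, which held 133 CPM against 209 to 236 CPM in the other 7.

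GARS fell by 0.50 in DMSO (adjusted p 2.06e-07), with 241 to 292 CPM for siRBM39-06 and 358 to 382 CPM for siRBM39-08 against 418 to 522 CPM with siNT. In 4OHT its change of -0.19 (adjusted p 0.0282) was lost with siRBM39-08 alone, with siNT2 alone and without replicate 1, 2 or 3, and was -0.26 (adjusted p 0.000824) without the library that stood apart. WARS was called lower in DMSO (-0.22, adjusted p 0.04), but that rested on one siRNA: siRBM39-06 gave 385 to 439 CPM (-0.55, called), and siRBM39-08 gave 587 to 632 CPM (0.04, not called), within the siNT range. The call was also lost in each fit without one of the 4 replicate numbers. HARS was not called in 4OHT (-0.09) with all libraries and was called without the library that stood apart (-0.28, adjusted p 0.000107). With single siRNAs it was -0.25 (called) for siRBM39-06 and 0.05 for siRBM39-08 in 4OHT, and 0.17 (called) and -0.06 in DMSO. The value of 0.05 includes the library that stood apart, with HARS at 243 CPM against 110.2 to 122 CPM in the other 7. KARS was not called in either treatment (0.06 and 0.05).

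TARS2 again fell most among mitochondrial genes, to 8.97 to 10.8 CPM in the DMSO libraries and 7.95 to 9.38 CPM in 4OHT siRBM39. The log2 changes were -0.92 ± 0.05 and -1.23 ± 0.05 (adjusted p 1.99e-19 and 3.81e-24), and -1.21 in 4OHT without the library that stood apart. Both siRNAs of each target gave a called fall in both treatments. AARS2, the mitochondrial alanyl enzyme, fell from 17.9 to 22.05 CPM to 11.8 to 16.7 CPM in DMSO and from 20.4 to 22.5 CPM to 12.4 to 14.9 CPM in 4OHT (-0.47 and -0.64, adjusted p 1.1e-09 and 1.07e-13), and by 0.65 in 4OHT without that library. IARS2 fell by 0.38 and 0.47 (adjusted p 1.8e-07 and 7.61e-10), from 128 to 137 CPM to 95.7 to 106 CPM in DMSO and from 142 to 157 CPM to 99.3 to 117 CPM in 4OHT. In both genes the groups were apart, and the IARS2 change in 4OHT was -0.46 without that library. HARS2 rose by 0.16 in DMSO, a call lost with siRBM39-08 alone (0.02) and without replicate 1 or 3, and by 0.26 in 4OHT (0.24 without that library).

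The multi-synthetase complex holds 8 of the listed genes (DARS, EPRS, IARS, KARS, LARS, MARS, QARS and RARS). With 4OHT, 2 of the 8 rose and 2 fell, against 39% and 39.1% of all genes. After siSF3B1, 1 rose and 5 fell in DMSO (RARS rose, by 0.19) and 1 rose and 6 fell in 4OHT (DARS rose, by 0.17), with medians of -0.36 and -0.50. After siRBM39, 5 fell in DMSO, where DARS (0.11), KARS (0.06) and RARS (-0.04) did not pass, and 1 rose and 6 fell in 4OHT (DARS rose, by 0.25), with medians of -0.29 and -0.38. Without the library that stood apart the 4OHT counts were the same and the median was -0.35. Over all genes, 36.5% rose and 36.2% fell in DMSO siSF3B1, and 39.4% and 37.6% in 4OHT siSF3B1. After siRBM39 these shares were 23.9% and 22.2% in DMSO and 32.2% and 24.3% in 4OHT with all libraries. The 12 cytosolic genes outside the complex had medians in DMSO and 4OHT of -0.15 and -0.31 after siSF3B1 and of -0.11 and -0.08 after siRBM39, the last at -0.14 without that library. In DMSO the medians inside and outside the complex were close with siRBM39-06 alone, at -0.35 and -0.30. With siRBM39-08 alone they were -0.09 and 0.02.

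The scaffold genes of the complex, AIMP1, AIMP2 and EEF1E1, did not follow. All 3 rose after siSF3B1 in both treatments, with AIMP2 at 22.4 CPM in DMSO siNT and 32.2 CPM in DMSO siSF3B1 (0.53 ± 0.06, adjusted p 3.39e-11). After siRBM39, 1 rose in DMSO and 1 fell in 4OHT. Sorted by catalytic fold, class I and class II enzymes both had more falls than rises after each knockdown, 9 and 8 falls in DMSO siSF3B1, 10 and 10 in 4OHT siSF3B1, 8 and 5 in DMSO siRBM39 and 8 and 5 in 4OHT siRBM39 (9 and 8 without the library that stood apart), of 16 and 17 genes. The rises after siRBM39 were 4 and 3 in DMSO and 5 and 2 in 4OHT, against 23.9% of all genes in DMSO and 32.2% in 4OHT. Over all genes, 36.2% fell in DMSO siSF3B1, 37.6% in 4OHT siSF3B1, 22.2% in DMSO siRBM39 and 24.3% in 4OHT siRBM39. Differences from these shares were not tested. Of 3 tested genes that act beside the mitochondrial synthetases, MTFMT, which formylates the initiator methionyl-tRNA, fell in all 4 comparisons (-0.80, -0.94, -0.52 and -0.46). QRSL1, another of the 3, rose after siSF3B1 in DMSO (0.27). After siRBM39, 2 of the 3 fell in DMSO and 3 in 4OHT.

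The 19 amino acid response genes had no common direction after the knockdowns. Counts were 9 higher and 6 lower in DMSO siSF3B1, 8 and 8 in 4OHT siSF3B1 and 3 and 7 in DMSO siRBM39. In 4OHT siRBM39 they were 6 and 6, with or without the library that stood apart. Over all genes, 36.5% were higher and 36.2% lower in DMSO siSF3B1, and 39.4% and 37.6% in 4OHT siSF3B1. After siRBM39 the shares over all genes were 23.9% and 22.2% in DMSO and 32.2% and 24.3% in 4OHT. The RBM39 siRNAs differed in DMSO, with 2 higher and 13 lower for siRBM39-06 alone (median -0.54). For siRBM39-08 alone 10 were higher and 4 lower (median 0.13). Of all 9991 genes, 6881 were called in either direction in DMSO with siRBM39-06 alone and 4657 with siRBM39-08 alone. ASNS, asparagine synthetase, fell by 1.83 and 1.87 on the log2 scale after siSF3B1 in DMSO and 4OHT, while DDIT3, a stress transcription factor, rose by 2.34 in 4OHT. The interferon gamma genes counted 1 higher and 3 lower after siSF3B1 in DMSO, 1 and 5 in 4OHT, 3 higher after siRBM39 in DMSO, and 1 and 2 in 4OHT. In DMSO they counted 3 higher and 3 lower with siRBM39-06 alone and 6 higher with siRBM39-08 alone. The 6 cytosolic genes with TGATGCAA had median changes of -0.47 and -0.46 after siSF3B1 and -0.34 and -0.15 after siRBM39, each in DMSO and then 4OHT, and the 10 with a window and no match medians of -0.15, -0.31, -0.09 and -0.10. Without the library that stood apart both values after siRBM39 in 4OHT were -0.22. In DMSO they were -0.55 and -0.21 with siRBM39-06 alone and -0.13 and 0.0035 with siRBM39-08 alone.

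The last gene comparisons asked whether a knockdown acted differently in 4OHT and in DMSO, by the interaction term of the same fit. For siSF3B1, 8 cytosolic and 6 mitochondrial genes were called, 14 of 34, against 37.8% of all genes. HARS2 had the largest difference, 0.59 ± 0.07 on the log2 scale (adjusted p 1.6e-08), followed by FARSA at -0.53 ± 0.12 (adjusted p 0.000637), which rose in DMSO (0.23) and fell in 4OHT (-0.30). HARS differed by -0.48 and VARS by -0.33, falling more in 4OHT, while WARS differed by 0.39, falling less. TARS2 differed by -0.30 (adjusted p 0.00164). For siRBM39, 4 cytosolic and 2 mitochondrial genes were called, 6 of 34, against 14.1%. With siRBM39-06 or siRBM39-08 alone the cytosolic count was 16 (11 positive and 5 negative differences) or 7 (1 positive and 6 negative). Over all 9991 genes, 1413 were called with both siRNAs, 4569 with siRBM39-06 alone and 2657 with siRBM39-08 alone. AARS differed by 0.53 ± 0.11 (adjusted p 0.000453), falling in DMSO but not called in 4OHT, and GARS by 0.31 (adjusted p 0.0336), a call lost with siRBM39-08 alone (0.17). MARS and TARS2 differed by -0.37 and -0.30 (adjusted p 0.00025 and 0.00389), falling more in 4OHT, and the MARS call was lost with siRBM39-06 alone (-0.10). Without the library that stood apart, 7 cytosolic and 2 mitochondrial genes were called, beside 2499 of all 9991 genes. The 4 differences named here were then 0.45, 0.24, -0.35 and -0.29, all called.

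Splicing was read as the per cent spliced-in (PSI), the share of transcripts that include an exon, keep an intron or use a site. Of the events in member genes, 67 cassette exons, 55 introns, 4 alternative 3' sites and 3 alternative 5' sites were covered in every library and varied enough to be tested. They lie in 26 members, and the other 8 measured members had none, among them WARS, AARS2, FARS2 and TARS2. Called events had an adjusted p under 0.05 by limma on the logit of PSI over all events of its type, and a difference of 5 percentage points or more. With 4OHT against DMSO under siNT, 0 exons and 0 introns of members were called by limma, against 1.6% of all exons and 0.0953% of all introns. At an unadjusted p under 0.05 by limma the counts were 4 exons and 2 introns, beside 726 of all 7673 exons and 340 of all 5248 introns. WARS had no event that could be tested, and AARS, FARSA and HARS had 11, 2 and 7.

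After siSF3B1, 11 member exons were called in DMSO and 11 in 4OHT, all with lower inclusion, against 25.7% and 29% of all exons. Introns with higher retention numbered 2 and 5 of 55, against 10.8% and 14.7%. Of 3 alternative 5' sites, 1 in VARS was used more in 4OHT, against 4.31%, a call lost with siSF3B1-16, siNT1 or siNT2 alone and without replicate 1, 3 or 4. After siRBM39, 2 exons were lower in DMSO, against 7.22%. In 4OHT 3 were lower, against 8.21%, and 1 was higher, against 1.13%, and without the library that stood apart 3 exons in all were called. Introns with higher retention numbered 2 in DMSO, against 1.91%, and 1 in 4OHT, against 1.92%, with or without that library. The shares of member exons called lower, at most 11 of 67, lay below those of all exons in each of the 4 comparisons, a difference that was not tested. No member event was called for a difference of a knockdown's effect between 4OHT and DMSO, against 0.613% of exons and 0.0191% of introns for siSF3B1 and 0.0391% of exons and 0% of introns for siRBM39. At an unadjusted p under 0.05 by limma, 6 and 1 exons and 1 and 2 introns were found for the 2 targets. Over all events these counts were 953 and 370 of 7673 exons and 478 and 232 of 5248 introns.

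In all, 24 events in 14 genes were called, 2 of them after both knockdowns, which share their siNT libraries within a treatment. Of the 17 exons, 15 matched an annotated exon in GRCh37, each inside a coding sequence with AG before and GT after, and 9 of the 15 had a length that is a multiple of 3, beside 32 of the 67 tested. The 6 introns all began with GT and ended with AG. Of the exons that moved most, 4 are shown with 60 bases of intron before, which hold the branch point region and the 3' splice site near which the depleted factors act, and 10 after, which hold the 5' splice site. Exon bases are in capitals, on the strand of the gene in GRCh37, and the coordinates are those of the exon.
RARS2 exon 11, chr6:88234275-88234370 (-): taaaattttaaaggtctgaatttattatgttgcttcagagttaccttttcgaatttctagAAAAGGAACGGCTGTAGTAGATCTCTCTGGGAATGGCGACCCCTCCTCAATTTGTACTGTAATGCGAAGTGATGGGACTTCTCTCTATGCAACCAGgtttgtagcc
LARS exon 24, chr5:145510582-145510672 (-): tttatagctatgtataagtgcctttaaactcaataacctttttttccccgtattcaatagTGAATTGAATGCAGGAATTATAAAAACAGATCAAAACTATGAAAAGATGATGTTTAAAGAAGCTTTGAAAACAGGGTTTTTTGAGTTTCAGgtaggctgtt
IARS exon 25, chr9:95012140-95012223 (-): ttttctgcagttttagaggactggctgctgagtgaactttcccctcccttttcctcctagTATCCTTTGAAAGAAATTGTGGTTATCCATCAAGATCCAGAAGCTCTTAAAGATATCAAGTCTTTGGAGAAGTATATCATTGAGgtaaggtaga
KARS exon 7, chr16:75668071-75668190 (-): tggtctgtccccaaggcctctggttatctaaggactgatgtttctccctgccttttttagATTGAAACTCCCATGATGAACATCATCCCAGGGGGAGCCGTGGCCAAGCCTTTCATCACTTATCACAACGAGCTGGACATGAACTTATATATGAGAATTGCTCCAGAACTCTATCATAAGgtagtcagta
The one tested intron called after both knockdowns, intron 19 of MARS, is shown whole with its end bases in capitals.
MARS intron 19, chr12:57909775-57910027 (+): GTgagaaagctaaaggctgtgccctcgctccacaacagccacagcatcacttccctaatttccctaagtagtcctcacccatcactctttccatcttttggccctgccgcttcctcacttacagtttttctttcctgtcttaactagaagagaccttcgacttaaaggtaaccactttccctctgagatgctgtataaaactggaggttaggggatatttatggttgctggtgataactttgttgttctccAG

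A cassette exon of DARS, the aspartyl enzyme of the complex, was almost always included with siNT, at 96.6 to 100% in DMSO and 98.7 to 100% in 4OHT. After siSF3B1 it fell to 68.4 to 84.2% (median 81.6) in DMSO and 71.1 to 77.6% (median 74.8) in 4OHT. The groups were apart in both treatments, with differences of -19.1 and -24.8 points (adjusted p 8.15e-15 and 2.17e-17), on 110 to 238 reads per library in DMSO and 124 to 215 in 4OHT. DARS mRNA was not called lower in any of the 5 comparisons. Exon 11 of RARS2, the mitochondrial arginyl enzyme, went from 99.4 to 88.4% in DMSO and from 99.5 to 77.7% in 4OHT (mean PSI), where single libraries ran from 53.2 to 93.5% on 28 to 60 reads. The adjusted p-values were 3.21e-07 and 5.37e-10, and RARS2 mRNA fell in both. Exon 24 of LARS, the leucyl enzyme, went from 98.7 to 83.3% in 4OHT (adjusted p 0.000609), but single libraries of 4OHT siSF3B1 ran from 57.2 to 100%, and siSF3B1-13 gave a mean of 72.9% and siSF3B1-16 of 93.6%.

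Exon 25 of IARS, the cytosolic isoleucyl enzyme, was included in 100% in every siNT library and in 77.9 to 91.5% after siSF3B1 in DMSO. In 4OHT siSF3B1 it was at 84.4 to 97.4%. The differences were -12.4 and -9.30 points (adjusted p 8.26e-21 and 9.03e-19), and after siRBM39 the exon stayed at 99.2% or more. Exon 7 of KARS was called after siRBM39 and not after siSF3B1. It was at 99.6% or more in every siNT library, at 89.2 to 97.0% in DMSO siRBM39 and at 85.8 to 93.0% in 4OHT siRBM39. The differences were -7.47 and -9.71 points (adjusted p 1.55e-16 and 3.65e-18), on 373 to 627 reads, while after siSF3B1 it was at 95.7 to 99.2%, under the minimum difference. A second IARS exon of 65 bases, listed as HsaEX0030798 and not matched to the annotation, fell after siRBM39 from 99.5 to 94.4% in DMSO and from 99.4 to 93.4% in 4OHT. The library that stood apart lay inside the range of the other 7 for the KARS exon (90.3%).

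Intron 19 of MARS, of 253 bases, was kept in 4.89 to 13.6% of transcripts in DMSO siNT and in 27.04 to 30.8% in DMSO siSF3B1. In DMSO siRBM39 it was kept in 15.1 to 20.5%. In 4OHT the ranges were 6.48 to 11.6% with siNT, 14.7 to 20.3% with siSF3B1 and 11.6 to 24.3% with siRBM39, where siRBM39-06 gave a mean of 13.3% and siRBM39-08 of 23.3%. The differences in DMSO were 19.2 and 8.26 points (adjusted p 6.19e-10 and 0.00138) and in 4OHT 8.50 and 9.95 points (adjusted p 3.91e-05 and 0.000146). MARS mRNA fell in all 4 comparisons, by 0.38 and 0.82 in DMSO and by 0.45 and 1.19 in 4OHT. Intron 4 of RARS, of 547 bases, rose after siRBM39 in DMSO from a mean of 3.04 to 12.9% (adjusted p 0.0115), on as few as 15.4 reads in a library, with values from 0 to 20.9%.

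**Figure D4:**
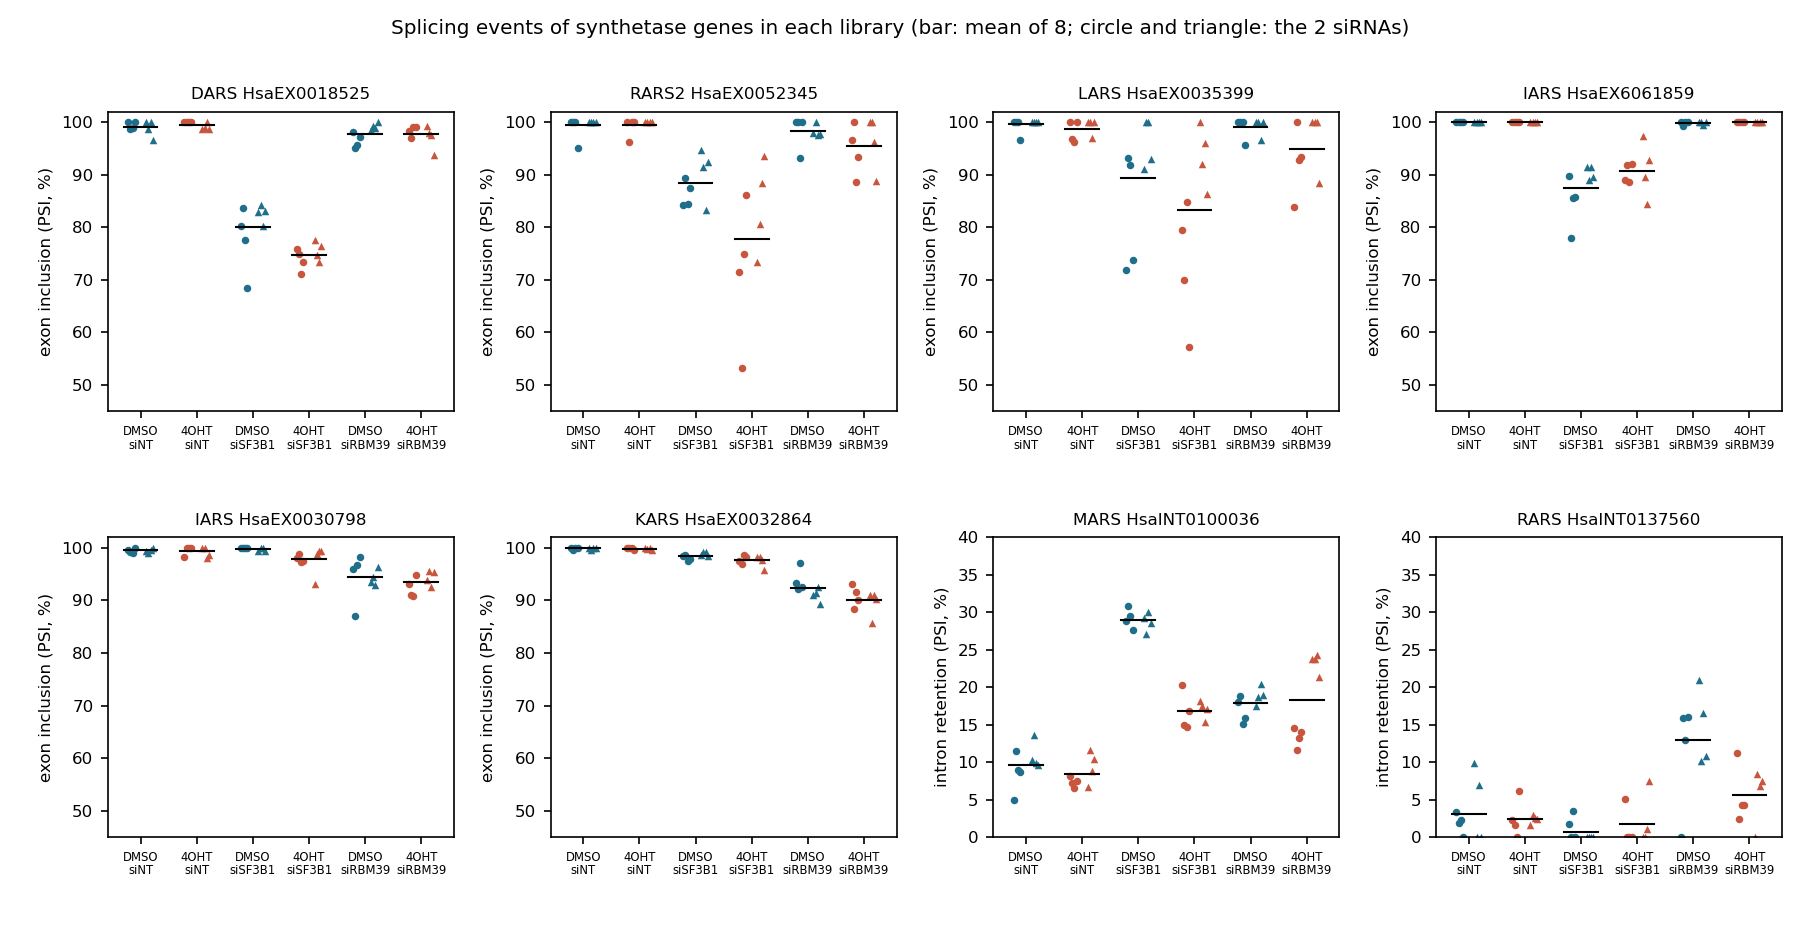
PSI in per cent of 6 exons and 2 introns of synthetase genes in each library, with a bar at the group mean and circles and triangles for the 2 siRNAs of a group. The exon axes do not start at 0. The DARS exon lies at 68.4 to 84.2% in both siSF3B1 groups and the KARS exon at 85.8 to 97.0% in both siRBM39 groups, while siNT libraries stay at 96.6% or more for both.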

How the data were processed

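RNA-seq counts of 34 synthetase genes and the splicing events in them were taken from 48 libraries, prepared with an mRNA capture kit. The authors aligned and quantified reads with vast-tools against a VAST-DB annotation named hg19. They deposited raw counts per gene without normalisation, and also deposited cRPKM, a mappability-corrected RPKM. Here cRPKM served to compare levels between genes and to give sums and some single levels by group, without TMM scaling. The authors gave inclusion as a percent (PSI) per event and library, with read numbers. Each intron also had a p-value, set by the authors, for the balance between reads at its exon-intron junctions and in its body. A deposited table of normalised values was not used here, and 0 columns of per-sample values were left without a sample.

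The 9991 genes with at least 10000 counts in all were fitted by the quasi-likelihood functions of edgeR 4.0.16 in R 4.3.3, after TMM scaling, with 6 group means in 1 model. Calls were made at a Benjamini-Hochberg adjusted p under 0.05. PSI was squeezed as 0.01 plus 0.98 of its fraction, and its logit was tested with limma 3.58.1, 1 fit per event type, over events covered in every library whose PSI spanned at least 5. Introns with a balance p under 0.05 in any library were left out. A call needed a difference of at least 5 points as well. The smallest depth, 31467221 counts, sets the precision of the gene values, while single events rested on far fewer reads, and no interval was computed from reads.

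The members and gene lists were chosen with earlier results of these data known. Named in full were, for each comparison of 2 groups, the 3 cytosolic and 3 mitochondrial members with the largest change among those called, besides HARS, HARS2, KARS, GARS, WARS and EPRS; the 3 events with the largest difference; and 2 genes of each list. Groups came from sample titles, since the treatment label of 4 libraries disagrees with the title on the siNT siRNA. All 72 pairs of replicates that share siRNA and treatment differed beyond sampling noise (chi-square per degree of freedom at least 2.00), so none was taken for a library deposited in duplicate, which does not show that cultures were separate. Both procedures were tested on simulated data. Alternatives were limma-voom, DESeq2 1.42.0 and its size factors, other count filters, other coverage, range, balance and difference limits for events, single siRNAs, a replicate block and libraries left out. Event coordinates lie in GRCh38, so each event was found by its GRCh38 place in lifted GENCODE records and read from GRCh37 at the place the record gives there. Promoter sequences came from RefSeq windows of GRCh38.p14. Figures were drawn with Python 3.11.15 and matplotlib 3.10.9, and tables made with numpy 2.4.6 and pandas 2.3.3.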

Additional observations from a re-analysis of the deposited data

Results flagged for a closer look

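Among the 18 synthetase genes described in full, 108 sets of 8 libraries were examined for a single library far from the other 7, and 13 were found. Chance alone would mark about 1 set in 20. 9 of the 13 were in 4OHT siRBM39, all in replicate 4 of siRBM39-08. In that library AARS stood at 116 CPM against 70.4 to 86.0 CPM in the other 7, CARS at 162 against 117 to 129 CPM and CARS2 at 114 against 54.1 to 69.5 CPM. FARS2 stood at 8.68 against 4.15 to 5.87 CPM, FARSA at 179 against 89.1 to 117 CPM and GARS at 319 against 217 to 243 CPM. HARS stood at 243 against 110.2 to 122 CPM and KARS at 211 against 142 to 151 CPM. EPRS was the one gene of the 9 that was low, at 133 against 209 to 236 CPM.

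The other 4 were in different groups. CARS2 was lowest in one library of DMSO siSF3B1, at 21.97 against 24.9 to 27.3 CPM. In DMSO siNT, GARS was highest in one library, at 522 against 418 to 459 CPM, and HARS2 was lowest in one, at 32.2 against 36.6 to 40.1 CPM. KARS was highest in one library of DMSO siRBM39, at 179 against 144 to 158 CPM.

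Among the same 18 genes, the effect of a knockdown differed between 4OHT and DMSO by the interaction term of edgeR for 12 pairs of a gene and a target. For siSF3B1 the difference on the log2 scale was -0.24 for CARS, -0.53 for FARSA, -0.48 for HARS, -0.33 for VARS, 0.39 for WARS, -0.22 for AARS2, 0.59 for HARS2 and -0.30 for TARS2. For siRBM39 it was 0.53 for AARS, 0.31 for GARS, -0.37 for MARS and -0.30 for TARS2.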

How the results depend on the processing

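Counts of called synthetase genes in the 5 comparisons of 2 groups stayed within 1.5 times the reported count under every alternative run, except mitochondrial genes with 4OHT, at 7 rather than 11 with siNT2 alone. Counts for the interaction terms moved more. For siSF3B1, 8 cytosolic genes became 4 with siNT1 alone and 4 with siNT2 alone (5 to 8 with one replicate number left out), and 6 mitochondrial genes became 3 with siNT2 alone (3 to 6). Over all genes the siSF3B1 count of 3781 became 2352 with siNT1 alone and 2534 with siNT2 alone. For siRBM39, 4 cytosolic genes became 10 with a mean per siRNA and treatment, 16 with siRBM39-06 alone, 7 with siRBM39-08 alone, 2 with siNT1 alone, 2 with siNT2 alone and 7 without replicate 4 of siRBM39-08 in 4OHT (2 to 4 with one replicate number left out). 2 mitochondrial genes became 6, 4, 1 and 1 with those 4 single siRNAs (0 to 3). Over all genes the siRBM39 count of 1413 became 4569, 2657, 537 and 628 with the same single siRNAs. It became 2777 with a mean per siRNA and treatment and 2499 without replicate 4 of siRBM39-08 in 4OHT.

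Event counts followed the limits. After siSF3B1 in DMSO, 11 exons and 2 introns became 7 and 1 at a stricter coverage score, 35 and 18 without a minimum difference and 5 and 1 at 10 points, and the introns 10 without the balance filter. In 4OHT, 11 exons and 5 introns became 5 and 3, 33 and 26, and 6 and 0 in that order, and the introns 16 without the balance filter. The 1 alternative site became 0 at the stricter coverage score, without the range filter, at 10 points, with siSF3B1-16, siNT1 or siNT2 alone and without replicate 1, 3 or 4 (0 to 1). After siRBM39 in DMSO, 2 exons became 6 without a minimum difference and 0 at 10 points (1 to 2 with one replicate number left out). The 2 introns became 1 at the stricter coverage score, without the range filter, with the 2 groups alone, with siRBM39-06 alone or with siNT1 alone, 0 with siNT2 alone or at 10 points, 4 without the balance filter and 5 without a minimum difference (1 to 2). In 4OHT, 4 exons became 0 at 10 points and 2 with siRBM39-06 alone, and 1 intron became 4 without the balance filter, 3 without a minimum difference, 0 at 10 points and 0 with siRBM39-06 alone. Apart from the limits themselves the cause was not tested.

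Among the changes of named genes, those whose sign turned were not called in the alternative. GARS after siSF3B1 in 4OHT was -0.018 with the 2 groups alone, -0.044 with siSF3B1-13 alone and -0.037 with siNT1 alone, and ran from -0.026 to 0.015 with one replicate number left out. After siRBM39, HARS was 0.047 in 4OHT and -0.062 in DMSO with siRBM39-08 alone. WARS was 0.041 in DMSO with siRBM39-08 alone, and in 4OHT -0.0015 with siNT2 alone and -0.0040 to 0.047 with one replicate number left out. KARS in 4OHT was -0.024 with siRBM39-06 alone, -0.028 without the library that stood apart and -0.031 to 0.076 with one replicate number left out. KARS with 4OHT was -0.018 with siNT1 alone and ran from -0.0047 to 0.059 with one replicate number left out, and after siSF3B1 in DMSO it was 0.13 with siSF3B1-16 alone. Of the remaining values for named genes, 38 lost and 6 gained a call over the alternatives.

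Replicate numbers were not used to pair the samples in the main fits. The 20 correlations of same-numbered deviations ran from -0.175 to 0.337, and 7 were over 0.1. For siSF3B1 against siNT in DMSO they were 0.225, 0.026, 0.142 and 0.337, so a shared structure by number is not excluded there. With the replicate block, 14 cytosolic and 11 mitochondrial genes were called with 4OHT, and 14 and 11 after siSF3B1 in DMSO. It changed no call of a named gene and no count of calls by over 1.5 times.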

Other observations

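Introns whose junction and body reads were unbalanced in at least one library were left out of the splicing comparisons. Without that filter 8 more introns of synthetase genes would have been called after siSF3B1 in DMSO, 11 in 4OHT, 2 after siRBM39 in DMSO and 3 in 4OHT. The 3 introns given here were picked for their size after the values were seen. An intron of 397 bases in MARS (HsaINT0100031) was kept at a mean of 4.66 ± 1.19% (SD, n = 8) in DMSO siNT and 37.02 ± 5.05% in DMSO siRBM39, and at 3.42 ± 1.90% and 23.6 ± 5.86% in 4OHT. After siSF3B1 its mean was 9.64% in DMSO and 5.68% in 4OHT. An intron of 97 bases in MARS (HsaINT0100038) went from a mean of 2.18 to 20.7% after siSF3B1 in DMSO and from 1.13 to 20.7% in 4OHT. In HARS an intron of 350 bases (HsaINT0074197) went from 0.171 to 10.6% after siSF3B1 in DMSO and from 0.148 to 12.3% in 4OHT.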
